A study of Mus musculus with 4 samples.

Results

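The genes described here encode the collagens, the laminins and 8 partner proteins of the extracellular matrix, measured by RNA sequencing of total RNA from mouse testis tissue. They were picked from the deposited table by a rule on names, which was set with earlier results of these data known. The rule took every gene named as a collagen chain or a laminin chain, together with Nid1, Nid2, Fn1, Hspg2, Agrn, Postn, Sparc and Lox. This gave 63 of the 44509 named genes. The 4 libraries fall into 2 groups of 2. The busulfan group was testis tissue of a mouse model of oligozoospermia (few sperm) induced with busulfan, an alkylating agent toxic to dividing germ cells. The Cus-1 group was testis tissue of mice with the same busulfan-induced oligozoospermia that were treated with Cus-1, which the series title calls a resin glycoside from a cuscutae extract. All 4 libraries therefore carry the busulfan injury. The labels give no strain, age, dose, time or batch, include no group without busulfan among the samples analysed here, and leave unsaid whether samples of a group came from separate animals, so p-values reflect no more than the scatter among these 4 samples, part of which may be technical. The sample titles begin with BPA in the busulfan group, which the labels do not explain, and with CUS2 in the group whose source label says Cus-1, and the treatment field names CUS for all 4 samples, so the grouping rests on the source label. Libraries are called busulfan 1, busulfan 2, Cus-1 1 and Cus-1 2, in the order of submission, and values set as one group versus the other give the busulfan libraries first.

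A basement membrane is a thin sheet under epithelia in which a network of collagen IV and a network of laminins are joined by nidogens and by heparan sulphate proteoglycans. Each laminin is a trimer of an alpha, a beta and a gamma chain, and each collagen molecule is a triple helix of alpha chains. In the testis the wall of the seminiferous tubule consists of a basement membrane on which Sertoli cells and spermatogonia rest, layers of fibrillar collagen, and flat contractile peritubular myoid cells. Sertoli and peritubular cells both contribute to that wall, and vessels and interstitial cells have matrix of their own. RNA from whole testis does not tell the tubule wall from these other sources. Values are relative to the total of each library. In bulk tissue, fewer cells of a type, less RNA per cell and a larger share of RNA from other cells therefore cannot be told apart.

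Values are FPKM (fragments per kilobase of gene and per 1e+06 mapped fragments). Comparisons of levels between genes depend on the gene lengths the authors used, which are not given. The summed FPKM ran from 726041 to 742689 per library, with an estimated 12.1 to 13.8 times 1e+06 fragments sequenced, judged from the steps between low values. A gene was tested when 2 or more libraries reached 1 FPKM, 19837 in all and 47 of the 63 matrix genes, none of which passed through the libraries of 1 group only. Log2 fold changes are the Cus-1 group minus the busulfan group on log2(FPKM + 1), a scale that shrinks differences between low values, with limma's standard error (SE). With limma's Benjamini-Hochberg adjusted p under 0.05 as the threshold, 0% of all tested genes were called higher and 0% lower, so 0 matrix genes passed. At an unadjusted limma p under 0.05, 18.0% of all tested genes were higher and 9.96% lower. Independently of any test, both Cus-1 libraries lay above both busulfan libraries for 36.6% of all tested genes and below both for 31.7%, and those shares are the background for the counts that follow. An exact two-sided permutation test of 2 against 2 libraries cannot go below p = 0.333.

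Matrix genes were lower with Cus-1 in most cases, and all tested basement membrane genes had a log2 fold change below 0. Of the 47 tested matrix genes, 37 had a negative and 10 a positive log2 fold change. Both Cus-1 libraries lay below both busulfan libraries for 28 of them and above for 5. At an unadjusted limma p under 0.05, 14 were lower and 1, Col16a1, was higher. The median log2 fold change was -0.41, beside 0.04 over all tested genes. Without busulfan 1, or without Cus-1 1, fewer matrix genes and also fewer of all tested genes were lower at that unadjusted p. Leaving out 1 of the 4 libraries moved the log2 fold change by more than 1.5 times for 33 of the 47 genes, most often for busulfan 1 (26 genes). A log2 fold change near 0, such as that of Col14a1 (0.07) or Col23a1 (-0.06), passes this ratio easily. The share over all tested genes was not counted. All 63 genes together made up 0.238% and 0.191% of the summed FPKM in the busulfan libraries, and 0.13% and 0.153% in the Cus-1 libraries. Sparc, which encodes a collagen-binding matricellular protein, made up 57.4% to 66.5% of that sum.

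**Figure D1:**
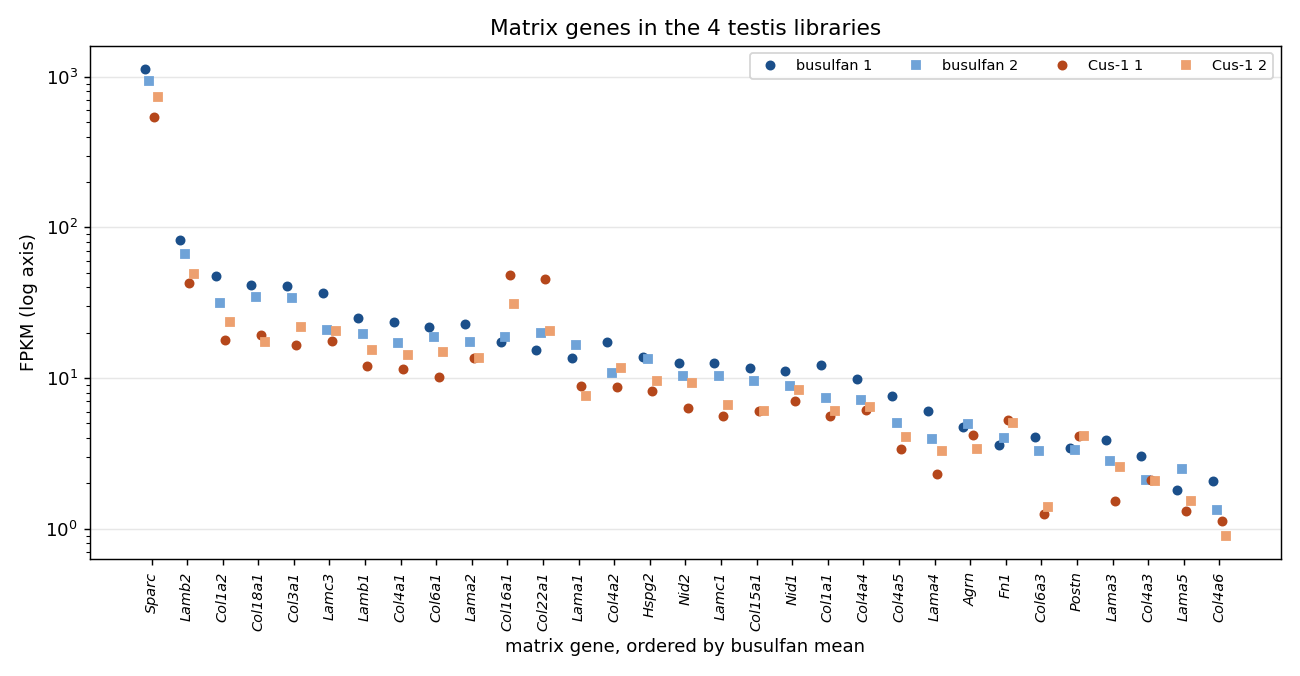
FPKM on a log axis for the 31 matrix genes described with full values, ordered by their busulfan mean, with 1 point per library (blue for busulfan, orange for Cus-1, circles for the first and squares for the second library). Sparc lies at 538 FPKM or above in every library, most genes have both orange points below both blue ones, and Col16a1, Col22a1, Fn1 and Postn have them above.

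The upstream sequences of 3 of these genes are shown because they hold different promoter motifs while all 3 genes had lower values in each Cus-1 library. They come from RefSeq's GRCm38.p6 promoter table, which gave windows for 45 of the 63 genes, and are cut to the part with no annotated exon. Each is read 5′ to 3′ on the strand of its gene. Capitals mark matches, on either strand, to the GC box (GGGCGG), the CCAAT box (CCAAT) and the TATA box (TATAAA). Hspg2 is on chr4:137468553-137468768, + strand, Col18a1 on chr10:77166549-77166780, - strand, and Col3a1 on chr1:45311288-45311537, + strand.
Hspg2: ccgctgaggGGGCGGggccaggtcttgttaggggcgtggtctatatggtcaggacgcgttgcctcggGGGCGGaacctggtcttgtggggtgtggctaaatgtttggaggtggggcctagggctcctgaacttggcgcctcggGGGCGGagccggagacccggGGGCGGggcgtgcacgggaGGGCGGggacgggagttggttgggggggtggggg
Col18a1: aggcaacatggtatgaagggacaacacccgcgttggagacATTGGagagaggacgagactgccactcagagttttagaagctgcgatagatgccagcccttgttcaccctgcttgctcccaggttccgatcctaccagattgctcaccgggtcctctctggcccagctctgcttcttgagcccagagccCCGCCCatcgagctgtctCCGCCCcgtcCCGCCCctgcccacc
Col3a1: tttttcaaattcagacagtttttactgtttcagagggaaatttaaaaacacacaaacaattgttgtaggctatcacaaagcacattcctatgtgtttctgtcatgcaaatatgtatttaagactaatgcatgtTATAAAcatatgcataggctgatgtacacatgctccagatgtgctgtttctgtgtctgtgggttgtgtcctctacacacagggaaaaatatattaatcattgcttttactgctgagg
The Hspg2 window holds 5 GC boxes, the Col18a1 window, which belongs to 1 of the 2 starts of this gene in the table, holds 3 GC boxes and 1 CCAAT box, and the Col3a1 window holds 1 TATA box and 0 GC boxes. Over the 250 bases before each start, at least 1 GC box stood in 28 of the 51 windows of matrix genes (54.9%) and in 32.7% of all 32841 windows in the table. A CCAAT box stood in 29.4% and 33.9%, a TATA box in 11.8% and 12.4%, and the cAMP response element TGACGTCA in 0% and 1.55%. These are matches of letters, not binding sites.

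Among the 23 genes of the basement membrane, 21 were tested and all 21 had a negative log2 fold change. Both Cus-1 libraries lay below both busulfan libraries for 19 of the 21, against 31.7% of all tested genes, and the exceptions were Col4a2 and Col4a3. The median log2 fold change was -0.53. It was -0.38 without busulfan 1 and -0.72 without busulfan 2. The highest value was in busulfan 1 for 18 genes and in busulfan 2 for 3, and the lowest in Cus-1 1 for 15 and in Cus-1 2 for 6. Over all tested genes busulfan 1 was highest for 33.4% and Cus-1 1 lowest for 34.5%. At an unadjusted limma p under 0.05, 9 of the 21 were lower, against 9.96% of all tested genes. After centring each library on Sertoli cell markers the basement membrane median turned to 0.17, and 2 of the 21 genes, against 1.79% of all tested genes, had lower values in each Cus-1 library. That centring moved the median of all tested genes from 0.04 to 0.74. It subtracts 1 value per library, so every log2 fold change moves by the same amount. The basement membrane median minus that of all tested genes, -0.57, is therefore the same on either scale by arithmetic. The same centring turned the medians of the fibrillar collagens to 0.48 and of collagen VI to 0.18.

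Collagen IV forms the covalent network of the basement membrane, from trimers of the paired chains a1 and a2, of a3, a4 and a5, or of a5 and a6. Col4a1 was at 23.4 and 17.2 FPKM in the busulfan libraries and 11.5 and 14.3 in the Cus-1 libraries (a log2 fold change of -0.61 with SE 0.23 and limma adjusted p = 0.171, in that order hereafter). Both Cus-1 libraries were below both busulfan libraries. Its partner Col4a2 was at 17.4 and 10.8 FPKM in the busulfan libraries and 8.79 and 11.6 in the Cus-1 libraries (-0.41, SE 0.29 and adjusted p = 0.360). The groups of Col4a2 overlapped, busulfan 2 lying below Cus-1 2, and its log2 fold change was -0.08 without busulfan 1 and -0.73 without busulfan 2. Col4a1 (chromosome 8, 11198423 to 11312826, minus strand) and Col4a2 (11312805 to 11449287, plus strand) are transcribed away from each other from starts 21 bases apart in the mm10 annotation of GENCODE M21, and their exons share 22 bases. The ratio of Col4a1 to Col4a2 in FPKM lay between 1.23 and 1.60 over the 4 libraries.

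The other collagen IV chains, which are scarcer in most tissues, were all measured in these testes. Col4a4 was at 9.89 and 7.20 FPKM in the busulfan libraries and 6.10 and 6.41 in the Cus-1 libraries, and Col4a5 at 7.58 and 5 versus 3.38 and 4.07. Col4a6 was at 2.07 and 1.34 versus 1.13 and 0.90. In these 3 genes both Cus-1 libraries were below both busulfan libraries, with log2 fold changes of -0.38 (SE 0.23), -0.61 (SE 0.27) and -0.41 (SE 0.27). Col4a3 was at 3.04 and 2.10 FPKM versus 2.12 and 2.09, so that only busulfan 1 stood apart (-0.19, SE 0.25, and 0.00 without busulfan 1). Col4a3 shares 563 exonic bases with C430014B12Rik on the opposite strand, a gene at 0.19 to 1.36 FPKM, so its value is uncertain. Col4a3 and Col4a4 start 72 bases apart on chromosome 1 and Col4a5 and Col4a6 start 1309 bases apart on chromosome X, each again in opposite directions. Within these sets Col4a4 exceeded Col4a3 and Col4a5 exceeded Col4a6 in every library, with Col4a3 at 0.292 to 0.348 of Col4a4 and Col4a5 at 2.99 to 4.52 times Col4a6.

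Laminin chains were lower in both Cus-1 libraries throughout the tested set. Of 11 chains 9 were tested, and for all 9 both Cus-1 libraries lay below both busulfan libraries, with a median log2 fold change of -0.64, and 5 of the 9 were lower at an unadjusted limma p under 0.05. After centring on Sertoli markers, which raises every log2 fold change by the same amount, 7 of the 9 were above 0, all except those of Lama1 and Lamc1. Among the alpha chains, which bind the cell surface receptors, Lama2, the chain of muscle and peripheral nerve laminins, was at 22.9 and 17.5 FPKM in the busulfan libraries and 13.6 and 13.5 in the Cus-1 libraries (-0.53, SE 0.20 and adjusted p = 0.171). Lama2 shares 631 exonic bases with Gm48084 on the opposite strand, a gene at 0.27 to 1.06 FPKM, so its value is uncertain. Lama1, the chain of early embryonic basement membranes, was at 13.6 and 16.5 versus 8.85 and 7.64 (-0.79, SE 0.20 and adjusted p = 0.152). It was 1 of the 3 basement membrane genes with their highest value in busulfan 2. Lama4, known from vessel walls, was at 6.01 and 3.92 FPKM versus 2.31 and 3.30 (-0.64, SE 0.29). Lama3, known from epithelial adhesion complexes, was at 3.91 and 2.82 versus 1.53 and 2.57 (-0.53, SE 0.29), and Lama5 at 1.81 and 2.51 versus 1.32 and 1.53 (-0.37, SE 0.25).

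Lamb2 was the most abundant laminin chain. It was at 82.0 and 67.1 FPKM in the busulfan libraries and 42.7 and 48.8 in the Cus-1 libraries (-0.69, SE 0.17 and adjusted p = 0.152), and lies on chromosome 9 (108479736 to 108490530). Lamb1, the beta chain of the widespread laminins, was at 25.0 and 19.7 versus 12.0 and 15.4 (-0.67, SE 0.21 and adjusted p = 0.157). The 2 groups did not overlap for either beta chain. Lamc3, a gamma chain of narrower distribution, was at 36.5 and 20.8 FPKM in the busulfan libraries and 17.6 and 20.5 in the Cus-1 libraries (-0.52, SE 0.30 and adjusted p = 0.275), so that busulfan 2 and Cus-1 2 nearly met, and the value was -0.13 without busulfan 1. Lamc3 shares 382 exonic bases with Gm13441 on the opposite strand, which was at 7.88 and 4.48 FPKM versus 4.11 and 3.76, so its value is uncertain too. Lamc1, the common gamma chain, was at 12.5 and 10.4 versus 5.60 and 6.59 (-0.81, SE 0.21 and adjusted p = 0.152). Lamb3, a beta chain of epithelial adhesion complexes, was under the level for testing. It was at 0.24 and 0.22 FPKM in the busulfan libraries and 0.81 and 0.40 in the Cus-1 libraries, the reverse order of the 9 tested laminin chains.

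The make-up of the laminins was alike in most libraries. Lamb2 supplied 76.4% and 77.1% of the summed FPKM of the beta chains with busulfan and 76.9% and 75.5% with Cus-1. Lamc3 supplied 73.2% and 65.5% of the gamma chains with busulfan and 74.8% and 73.6% with Cus-1. Lama2 supplied 47.5% and 40.4% of the alpha chains against 49.2% and 47.4%, and Lama1 28.2% and 38.2% against 32.1% and 26.7%. The groups overlapped for Lamb2, Lama2 and Lama1. The Lamc3 share was higher in both Cus-1 libraries, with busulfan 2 farthest from the rest. Col4a1 supplied 37.0% and 39.4% of collagen IV with busulfan and 34.8% and 36.3% with Cus-1, so that its share was lower in both Cus-1 libraries, and Col4a4 supplied 15.6% and 16.5% against 18.5% and 16.3%, with overlap. These shares were not tested, and their size depends on the gene lengths used. Annotated exons of Lama2 cover 16.3 kb and its longest transcript is 9.61 kb, against 9.68 and 9.53 kb for Lama1.

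**Figure D2:**
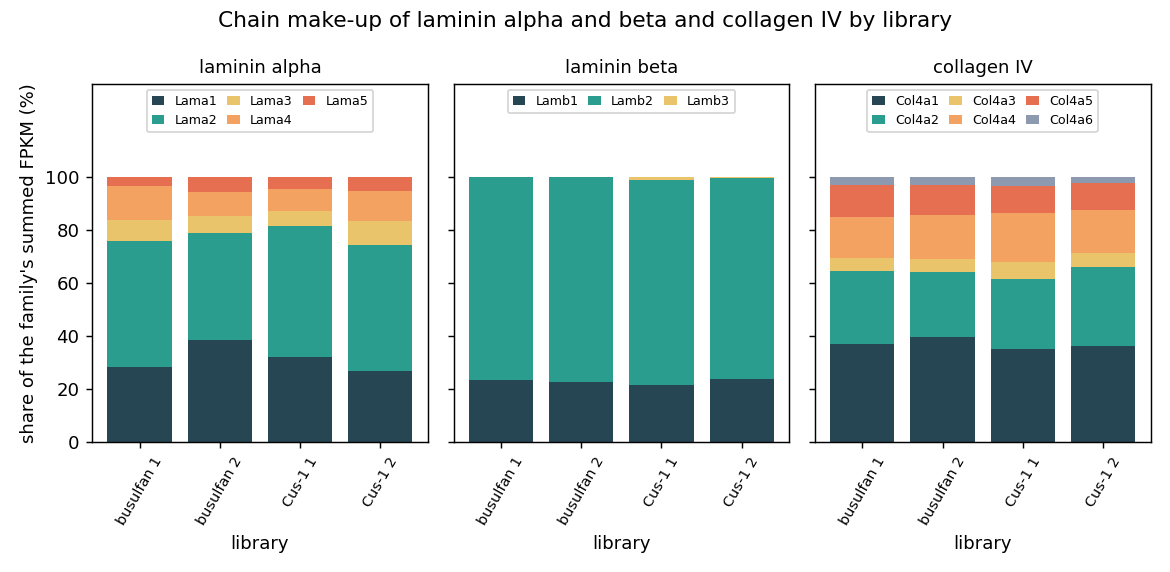
Share of each chain in the summed FPKM of its family, in percent, as stacked bars per library for the laminin alpha and beta chains and for collagen IV. Lamb2 takes 75.5% to 77.1% of the beta chains, and Lama2 is the largest alpha chain in every library.

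The 4 linkers and proteoglycans had a median log2 fold change of -0.43. Nid1 and Nid2 encode nidogens, which bridge laminin and collagen IV. Nid1 was at 11.2 and 8.89 FPKM in the busulfan libraries and 7.10 and 8.30 in the Cus-1 libraries (-0.34, SE 0.21), and Nid2 at 12.6 and 10.4 versus 6.35 and 9.29 (-0.51, SE 0.25). Nid2 shares 437 exonic bases with Rtraf on the opposite strand, a gene at 66.6 to 104.6 FPKM, and without a stated strand setting its value is uncertain. Hspg2, which encodes perlecan, was at 13.9 and 13.3 FPKM versus 8.22 and 9.57 (-0.56, SE 0.18 and adjusted p = 0.157). The busulfan libraries of Hspg2 lay close together and well above the Cus-1 libraries. Agrn, which encodes agrin, was at 4.72 and 4.98 versus 4.17 and 3.37 (-0.30, SE 0.22).

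The multiplexin collagens, heparan sulphate-bearing or chondroitin sulphate-bearing chains at the basement membrane, had a median log2 fold change of -0.86 over their 2 genes. Col18a1, the source of endostatin, was at 41.2 and 34.7 FPKM in the busulfan libraries and 19.4 and 17.3 in the Cus-1 libraries (-1.0, SE 0.17, adjusted p = 0.152 in limma's fit across all tested genes, 0.00207 unadjusted). It lies on chromosome 10 (77052178 to 77166548). This was the lowest log2 fold change of the 21 basement membrane genes, and the groups did not overlap. Col15a1 was at 11.7 and 9.53 FPKM versus 6.05 and 6.06 (-0.71, SE 0.20 and adjusted p = 0.152). Leaving out each library in turn left Col18a1 between -1.13 and -0.88 and Col15a1 between -0.84 and -0.58.

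**Figure D3:**
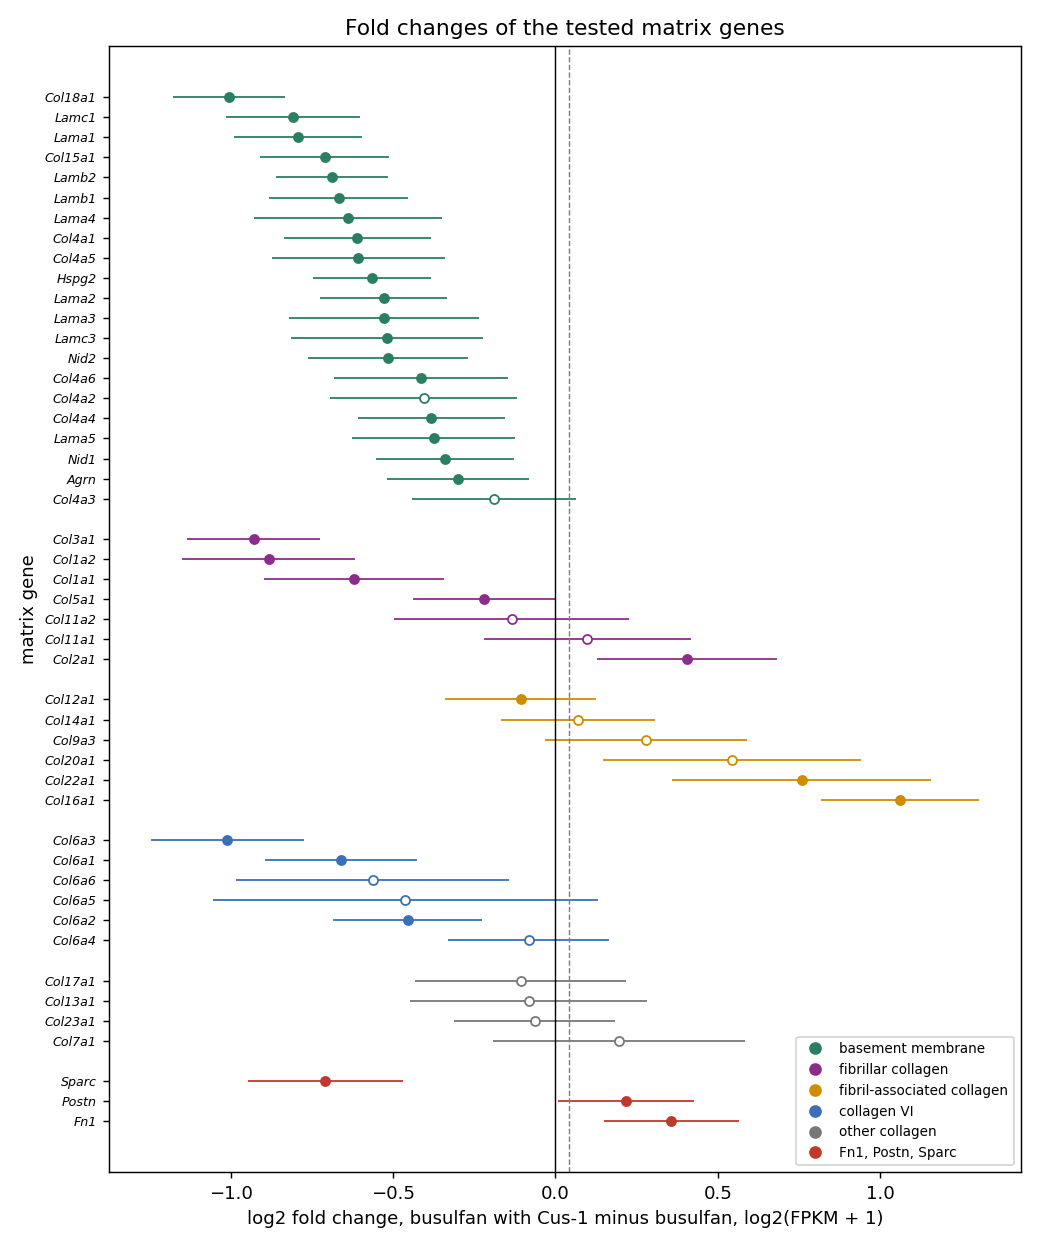
Log2 fold change (Cus-1 minus busulfan, on log2(FPKM + 1)) with limma's standard error for the 47 tested matrix genes, coloured by group, filled where the libraries of the 2 groups do not overlap. The dashed line is the median of all tested genes at 0.04, and all 21 basement membrane genes lie left of 0, while Col16a1 at 1.06 lies farthest right.

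Fibrillar collagens, the rope-forming chains of connective tissue, divided by abundance. Col1a2, Col3a1 and Col1a1, the chains of collagens I and III, were the only 3 of 11 that reached 5 FPKM in 2 or more libraries. Col1a2 was at 47.9 and 31.4 FPKM in the busulfan libraries and 17.9 and 23.7 in the Cus-1 libraries (-0.88, SE 0.27 and adjusted p = 0.152). Col3a1 (chromosome 1, 45311538 to 45349706) was at 40.9 and 33.8 versus 16.7 and 21.8 (-0.93, SE 0.20 and adjusted p = 0.152), and Col1a1 at 12.2 and 7.39 versus 5.64 and 6.05 (-0.62, SE 0.28 and adjusted p = 0.206). In all 3 both Cus-1 libraries were below both busulfan libraries, and Col1a1 was at -0.29 without busulfan 1. Although collagen I holds more a1 than a2 chains, Col1a2 was at 3.17 to 4.25 times Col1a1 in FPKM in every library. This ratio depends on the gene lengths used. Annotated exons of Col1a2 cover 12.4 kb and its longest transcript is 5.35 kb, against 6.56 and 5.93 kb for Col1a1.

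The scarcer fibrillar collagens showed no common direction. Col5a1, a regulator of fibril diameter, was at 3.14 and 2.92 FPKM versus 2.33 and 2.60 (-0.22, SE 0.22). Col2a1, the cartilage collagen, was higher in both Cus-1 libraries, at 1.84 and 2.15 versus 2.32 and 3.73 (0.41, SE 0.28). Col11a1 was at 2.86 and 1.51 versus 1.93 and 2.79 and Col11a2 at 2.30 and 0.88 versus 1.55 and 1.02, with overlapping groups and log2 fold changes of 0.10 (SE 0.32) and -0.13 (SE 0.36). Their sign turned when single libraries were left out, Col11a1 running from -0.21 to 0.41 and Col11a2 from -0.54 to 0.27. Col5a2, Col5a3, Col24a1 and Col27a1 were not tested. Col5a2, which lies 24.6 kb from Col3a1, was at 2.55 and 0.98 FPKM in the busulfan libraries and 0.57 and 0.56 in the Cus-1 libraries.

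The order of basement membrane and fibrillar collagen genes turned with the genes that were counted, and no test of it was made. The median log2 fold change was -0.53 for the 21 basement membrane genes and -0.22 for the 7 tested fibrillar collagens, a difference of -0.31 that ran from -0.42 to -0.16 when each library was left out. Among genes that reached 5 FPKM in 2 or more libraries the order turned, with medians of -0.61 and -0.88 and a difference of 0.28. The summed FPKM of the basement membrane genes was 364.0 and 287.3 in the busulfan libraries and 191.0 and 214.2 in the Cus-1 libraries. That of the fibrillar collagens was 115.6 and 82.2 against 50.1 and 63.3. Their ratio was 3.15 and 3.49 in the busulfan libraries and 3.81 and 3.38 in the Cus-1 libraries, and the groups overlapped. Both sums were lower in each Cus-1 library, and which set was the lower depended on whether scarce genes were counted.

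Collagen VI, which forms beaded microfibrils next to basement membranes, had a log2 fold change below 0 for all 6 chains. Col6a1 was at 21.8 and 18.7 FPKM in the busulfan libraries and 10.2 and 15.0 in the Cus-1 libraries (-0.66, SE 0.23 and adjusted p = 0.167), and Col6a2 at 9.91 and 7.72 versus 5.46 and 6.84 (-0.45, SE 0.23). Col6a3 was at 4.09 and 3.30 versus 1.25 and 1.40 (-1.01, SE 0.24 and adjusted p = 0.152), the lowest log2 fold change of all 47 tested matrix genes. In these 3 genes the groups did not overlap. The alternative chains Col6a4, Col6a5 and Col6a6, which neighbour each other on chromosome 9, overlapped between the groups. Col6a5 was at 6.62 and 3.22 FPKM versus 1.42 and 6, and its log2 fold change was -0.46 (SE 0.59), with 0.30 without Cus-1 1 and -1.23 without Cus-1 2. Col6a6 was at 4.73 and 1.88 versus 1.28 and 2.32 (-0.56, SE 0.42, and -0.07 without busulfan 1) and Col6a4 at 4.82 and 3.43 versus 4.10 and 3.51 (-0.08, SE 0.25). The median of the 6 chains was -0.51, with -0.18 without busulfan 1.

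The fibril-associated collagens, which sit on the surface of fibrils, included the only matrix gene that was higher at an unadjusted limma p under 0.05. Col16a1 (chromosome 4, 130047840 to 130099283) was at 17.4 and 18.8 FPKM in the busulfan libraries and 48.2 and 31.2 in the Cus-1 libraries (1.06, SE 0.24, adjusted p = 0.152 in limma's fit across all tested genes, 0.00741 unadjusted). In FPKM, the lower Cus-1 library of Col16a1 exceeded the higher busulfan library by more than the 2 busulfan libraries differed. That gap was smaller than the difference between the 2 Cus-1 libraries. The log2 fold change of Col16a1 ran from 0.76 to 1.37 when each library was left out. Col22a1, known from tissue junctions such as those of muscle and tendon, was at 15.5 and 20.1 FPKM versus 45.4 and 20.4 (0.76, SE 0.40 and adjusted p = 0.249), so that only Cus-1 1 stood apart, and its value was 0.20 without that library and 1.32 without Cus-1 2. Col20a1 was at 2.58 and 4.38 versus 7.73 and 3.68 (0.54, SE 0.40, 0.09 without Cus-1 1), with overlapping groups. Col9a3 was at 2.11 and 1.20 versus 2.73 and 1.70 (0.28, SE 0.31), and shares 234 exonic bases with Tcfl5 on the opposite strand, a gene at 70.0 and 88.9 FPKM in the busulfan libraries and 161.4 and 138.1 in the Cus-1 libraries, which makes its value uncertain. Col12a1 and Col14a1 were near 0 in log2 fold change, at -0.11 (SE 0.23) and 0.07 (SE 0.24).

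Of the 6 tested fibril-associated collagens, 5 had a positive log2 fold change, 2 lay above in both Cus-1 libraries (36.6% of all tested genes did) and the median was 0.41, with 0.07 without Cus-1 1. The summed FPKM of the 9 measured genes was 40.8 and 48.1 in the busulfan libraries and 108.7 and 60.9 in the Cus-1 libraries. Beside it, summed spermatid markers were at 3031 and 3128 FPKM versus 11302 and 4098, and summed spermatocyte markers at 1393 and 2102 versus 3335 and 3025. All 8 spermatid and all 8 spermatocyte markers were higher in both Cus-1 libraries, with medians of 1.19 and 1.0. In both the fibril-associated and the spermatid sum Cus-1 1 was the highest library, and the part of germ cells in these collagen values was not tested.

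The remaining collagens were scarce, and the 4 that were tested overlapped between the groups. Col17a1, a transmembrane collagen of hemidesmosomes, was at 3.20 and 1.51 FPKM versus 2.08 and 1.95 (-0.11, SE 0.32). Col7a1, the anchoring fibril collagen, was at 1.63 and 1.73 versus 1.17 and 3.34 (0.20, SE 0.39), Col13a1 at 1.80 and 0.57 versus 0.79 and 1.19 (-0.08, SE 0.37), and Col23a1 at 1.45 and 1.04 versus 1.18 and 1.10 (-0.06, SE 0.25). Of the 16 matrix genes that were not tested, 13 were under 1 FPKM in every library, the highest being Col5a3 and Col9a1 at 0.94. Col26a1 was at 0.22 and 0.35 FPKM in the busulfan libraries and 8.25 and 0.28 in the Cus-1 libraries, a value in Cus-1 1 of about 317 fragments by the estimated depth and the longest annotated transcript, against 8 to 13 in the other libraries. Col28a1 was at 0.65 and 0.83 versus 1.06 and 0.86 and Col25a1 at 0.05 and 0.12 versus 0.15 and 0.33. Neither was tested, and the groups did not overlap, though busulfan 2 and Cus-1 2 nearly met for Col28a1. The values rest on an estimated 34 to 62 fragments for Col28a1 and 4 to 27 for Col25a1. Col10a1 was listed at 0 in busulfan 1 and Cus-1 2 and reached 0.04.

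Sparc and its neighbours in function divided in direction. Sparc (chromosome 11, 55394500 to 55423183), whose protein binds collagen and is made by Sertoli and Leydig cells, was at 1122 and 935 FPKM in the busulfan libraries and 538 and 730 in the Cus-1 libraries (-0.71, SE 0.24 and adjusted p = 0.161), with no overlap and -0.49 without Cus-1 1. Fn1, which encodes the adhesion protein fibronectin, was at 3.60 and 4.01 FPKM versus 5.29 and 5.01 (0.36, SE 0.21 and adjusted p = 0.283), and Postn, which encodes the matricellular protein periostin, at 3.46 and 3.32 versus 4.10 and 4.11 (0.22, SE 0.21 and adjusted p = 0.487). Fn1 shares 292 exonic bases with Apol7d on the opposite strand, which was at 0.60 and 1.13 FPKM in the busulfan libraries and 2.80 and 4.02 in the Cus-1 libraries, so the Fn1 value is uncertain. Fn1 and Postn were higher in both Cus-1 libraries, as 36.6% of all tested genes were, and both missed the threshold. Lox, the lysyl oxidase that cross-links collagen, was not tested and was at 0.80 and 0.40 FPKM versus 0.32 and 0.36.

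The machinery around the matrix was measured with 6 lists holding 104 gene names, of which 82 genes were tested. A log2 fold change below 0 was found for 73 of the 82, both Cus-1 libraries lay below both busulfan libraries for 58 and above for 6, and 34 were lower and 0 higher at an unadjusted limma p under 0.05, against 9.96% and 18.0% of all tested genes. None passed the adjusted threshold. After centring on Sertoli markers the medians of the 6 lists ran from -0.053 (proteases) to 0.29 (processing). The enzymes and chaperones that fold and modify procollagen had a median of -0.59 over 15 genes, 11 of which lay below in both Cus-1 libraries. Ppib, a prolyl isomerase of collagen folding, was at 291 and 255 FPKM in the busulfan libraries and 161 and 200 in the Cus-1 libraries (-0.60, SE 0.18). P4hb, a subunit of prolyl 4-hydroxylase, overlapped at 100.1 and 114 FPKM versus 81.2 and 108 (-0.19, SE 0.19, 0.01 without Cus-1 1).

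Processing and cross-linking genes had a median of -0.41 over 8 genes. Pcolce, an enhancer of procollagen cleavage, was at 348 and 337 FPKM versus 205 and 302 (-0.46, SE 0.23, -0.18 without Cus-1 1), and Tgm2, a transglutaminase that cross-links matrix proteins, at 42.6 and 46.2 versus 20.98 and 22.8 (-0.99, SE 0.15 and adjusted p = 0.152). Matrix proteases and their inhibitors had a median of -0.75 over 11 genes, 10 of which lay below in both Cus-1 libraries. Mmp14, a membrane-bound collagenase, was at 79.2 and 51.1 FPKM versus 36.2 and 38.9 (-0.75, SE 0.24, -0.44 without busulfan 1), and the inhibitor Timp2 at 451 and 389 versus 217 and 298 (-0.72, SE 0.22).

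The receptors of the matrix had a median of -0.44 over 14 genes, 11 of which lay below in both Cus-1 libraries and 1 above. Itgb1, the beta subunit shared by the main collagen and laminin receptors, was at 114 and 92.3 FPKM in the busulfan libraries and 61.8 and 82.6 in the Cus-1 libraries (-0.51, SE 0.21, -0.31 without Cus-1 1), and Ddr1, a receptor tyrosine kinase for collagen, at 71.3 and 52.1 versus 29.6 and 34.1 (-0.92, SE 0.21 and adjusted p = 0.152). Genes of the TGF-beta pathway, a main regulator of matrix genes, had a median of -0.63 over 11 genes, 8 of them lower in both. That median was -0.35 without busulfan 1, as that of the receptors was -0.25. Ccn2, a matricellular target of the pathway, was at 41.7 and 32.8 FPKM versus 27.9 and 32.7 (-0.28, SE 0.19, -0.12 without busulfan 1), the co-receptor Tgfbr3 at 44.0 and 27.5 versus 12.5 and 20.3 (-1.08, SE 0.33 and adjusted p = 0.152) and the signal transducer Smad2 at 28.3 and 25.8 versus 23.5 and 27.3 (-0.09, SE 0.16, 0.01 without Cus-1 1). Other matrix glycoproteins and proteoglycans had a median of -0.47 over 23 genes, 13 of them lower in both and 4 higher. Dcn, which encodes decorin, was at 316 and 182 FPKM versus 129 and 166 (-0.71, SE 0.31, -0.31 without busulfan 1 and -1.10 without busulfan 2), and Ogn overlapped at 61.8 and 81.6 versus 34.5 and 63.1 (-0.60, SE 0.33, -0.17 without Cus-1 1).

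Of the cell types that can supply this matrix, summed markers of Sertoli, stromal, macrophage, endothelial and Leydig cells had lower values in each Cus-1 library, while those of peritubular myoid cells overlapped. Summed Sertoli markers were at 8784 and 6751 FPKM in the busulfan libraries and 4275 and 5363 in the Cus-1 libraries, all 14 lower in both Cus-1 libraries (median -0.72). Interstitial stroma markers were at 199.9 and 156.1 versus 97.3 and 115.3 (5 of 5 tested lower in both, median -0.65). Macrophage markers were at 443.8 and 323.2 versus 209.3 and 288.0 (5 of 7, -0.63) and endothelial markers at 78.6 and 58.5 versus 39.9 and 48.9 (6 of 8, -0.52). Leydig markers were at 26613 and 26014 versus 12885 and 18894 (5 of 8, -0.49). The Leydig sum was mostly Insl3, at 22947 and 20478 FPKM versus 10265 and 14601, while Cyp17a1, Cyp11a1 and Star overlapped between the groups. Peritubular myoid markers were at 581.2 and 413.7 versus 403.0 and 486.9, with 1 of 8 lower (Des) and 1 of 8 higher (Actg2, 1.13, SE 0.43) in both Cus-1 libraries and a median of -0.28. Acta2, the smooth muscle actin of these cells, was at 123 and 77.1 FPKM in the busulfan libraries and 71.8 and 90.9 in the Cus-1 libraries. Spermatogonial markers were at 126.5 and 123.3 FPKM versus 99.7 and 99.03 (4 of 6 tested lower in both, 2 higher). Kit, the most abundant of them, was at 70.5 and 60.7 FPKM versus 38.4 and 38.7. The group mean of Kit fell by more than that of the whole sum, so the lower sum rests on Kit. The 2 that were higher in both Cus-1 libraries were Id4 and Stra8. The part of these cell types in the matrix values was not tested.

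Markers of neighbouring tissues were mostly low. The 5 skeletal muscle markers were at up to 0.45 FPKM except Myl1, which reached 1.31. The epididymal markers Crisp1 and Adam7 reached 0.27 and 0.04, while Cst11 was at 1.90 and 4.44 FPKM versus 2.86 and 0.39, with overlap. The mesothelial markers Upk3b, Msln and Krt19 reached 0.82, 0.78 and 1.24, and Lrrn4 was at 3.58 and 3.62 versus 4.14 and 3.87. The mesothelial list, which includes Wt1 of Sertoli cells, summed to 84.5 and 60.1 FPKM in the busulfan libraries and 49.5 and 48.6 in the Cus-1 libraries. Adipose markers were at 13.6 and 20.8 FPKM in sum in the busulfan libraries and at 5.98 and 9.93 with Cus-1. Adipoq and Cidec reached 1.26 and 0.93, Plin1 overlapped at 4.17 and 11.6 versus 3.42 and 6.80, and Fabp4, which capillary endothelium also expresses, was at 7.68 and 7.29 versus 1.44 and 2.47 (-1.54, SE 0.26 and limma adjusted p = 0.152). The part of these tissues in the matrix values was not tested.

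**Figure D4:**
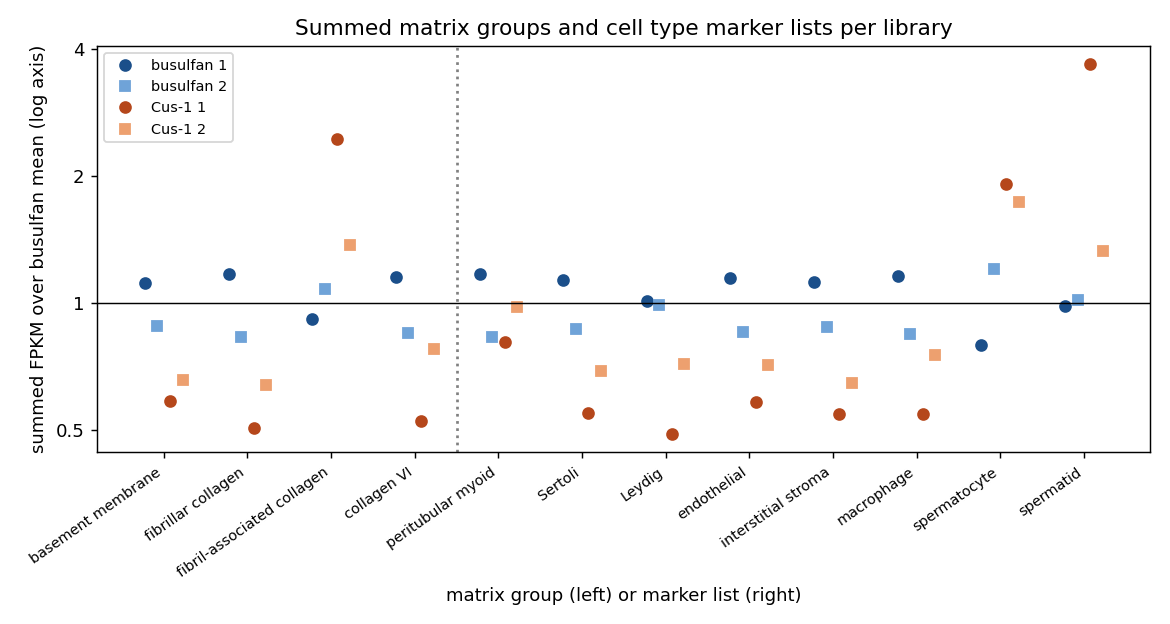
Summed FPKM of 4 matrix groups (left of the dotted line) and 8 marker lists (right), each divided by its busulfan mean, on a log axis with 1 point per library. Basement membrane, fibrillar collagen and Sertoli sums lie below the busulfan libraries in both Cus-1 libraries, peritubular myoid sums overlap, and fibril-associated collagen, spermatocyte and spermatid sums lie above.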

How the data were processed

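The authors deposited 1 table of FPKM per gene and library, printed to 2 decimals, with mm10 as the build named in the submitters' processing notes. The sources used here do not give the aligner, the counter, its annotation, its strand setting or its gene lengths. Of 45536 rows with values, 910 with a dash for a name (0.641% to 0.688% of the summed FPKM) were left out of all tests, and for 115 repeated symbols, none of a matrix gene, the row with the highest mean was used. Positions come from GENCODE M21 (mm10), which matched all 63 matrix genes.

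Testing used limma 3.58.1 in R 4.3.3 (trend option on) with log2(FPKM + 1) as input, over genes that reached 1 FPKM in 2 or more libraries, with Benjamini-Hochberg adjustment over all of them. The fit was tested on simulated data with independent scatter of the same size for every gene, which does not show how it performs on these libraries. Depth was estimated from the most common product of FPKM and length among genes with 1 transcript of 300 to 2000 bases. It shifts with the length the authors used, so fragment numbers are approximate.

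The matrix genes, their groups and the lists around them were chosen with earlier results of these data known. Lists are described by counts and medians without a test. Values are given for the 20 most abundant tested matrix genes, every tested collagen IV and laminin chain, the 8 partner genes, any whose log2 fold change was 1 or more in size and, more briefly, the other matrix genes, and for the 2 most abundant genes of each surrounding list. Tgfbr3 and other genes named to show overlap or marker levels were chosen after their values were seen. Alternatives were the pseudocount (0.1), no filter, a 5 FPKM filter, quantile normalization, centring on Sertoli markers, limma without the trend, each library left out, and other group memberships. 1 of the matrix genes below the level for testing is not reported here.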

Additional observations from a re-analysis of the deposited data

How the results depend on the processing

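Log2 fold changes of the 47 tested matrix genes kept their sign with a pseudocount of 0.1, without a filter and in limma without the trend, and all 25 left by the 5 FPKM filter kept it. Quantile normalization turned Col11a1 (-0.034) and Col14a1 (-0.095). Centring on Sertoli markers is the choice that changed most: it turned 29 of the 47, while shifting the median of all tested genes from 0.04 to 0.74. Under it the medians were 0.17 for basement membrane, 0.48 for fibrillar collagens, 0.18 for collagen VI, 0.62 for other collagens, 1.10 for fibril-associated collagens, 0.91 for the fibronectin group, 0.26 for receptors, 0.11 for biosynthesis, 0.29 for processing, -0.053 for proteases, 0.063 for the TGF-beta pathway and 0.22 for other matrix genes. Called genes were 2 at the adjusted threshold, 64 lower and 9175 higher at unadjusted p, matrix genes 0 lower and 7 higher, and 4 matrix genes, 2 of them of the basement membrane, were lower in both Cus-1 libraries. The single genes that turned under it were Col4a1 (0.085), Col4a2 (0.29), Col4a3 (0.51), Col4a4 (0.31), Col4a5 (0.087), Col4a6 (0.28), Lama2 (0.17), Lama3 (0.17), Lama4 (0.056), Lama5 (0.32), Lamb1 (0.027), Lamb2 (0.0061), Lamc3 (0.18), Nid1 (0.35), Nid2 (0.18), Hspg2 (0.13), Agrn (0.39), Col1a1 (0.074), Col5a1 (0.48), Col11a2 (0.56), Col12a1 (0.59), Col6a1 (0.035), Col6a2 (0.24), Col6a4 (0.61), Col6a5 (0.23), Col6a6 (0.13), Col13a1 (0.61), Col17a1 (0.59), Col23a1 (0.63), Itgb1 (0.18), Ppib (0.092), P4hb (0.50), Pcolce (0.24), Ccn2 (0.41), Smad2 (0.60) and Ogn (0.099). With the 5 FPKM filter, which tests fewer genes, medians were -0.88 for fibrillar collagens, 0.91 for fibril-associated collagens, -0.27 for processing and -0.18 for the fibronectin group, the basement membrane minus fibrillar median was 0.28 and the log2 ratio of their sums 0.22. That ratio was 0.11 in the report's setting and -0.090 with the fibril-associated collagens, collagen VI, Fn1, Postn, Sparc and Lox counted as fibrillar. Without a filter the fibronectin group was at -0.013 and 2 matrix genes were higher at unadjusted p, and with quantile normalization that group was at 0.092. Leaving out each library assumes that the lone sample left varies like the other group. Genes past the adjusted threshold then ran from 0 to 7 (7 without Cus-1 1), genes higher at unadjusted p from 1159 to 3821, genes lower from 426 to 1996, matrix genes lower from 4 to 13 and higher from 1 to 3. Medians ran from -0.72 to -0.38 for basement membrane, -0.54 to -0.18 for fibrillar collagens, -0.34 to 0.22 for other collagens, -0.56 to -0.20 for processing, -0.95 to -0.58 for proteases, -0.91 to -0.35 for the TGF-beta pathway and -0.62 to -0.25 for receptors. Signs turned for Col4a3 (-0.38 to 0.0023), Col11a1 (-0.21 to 0.41), Col11a2 (-0.54 to 0.27), Col14a1 (-0.011 to 0.15), Col6a4 (-0.28 to 0.11), Col6a5 (-1.23 to 0.30), Col7a1 (-0.30 to 0.70), Col13a1 (-0.50 to 0.33), Col17a1 (-0.48 to 0.26), Col23a1 (-0.20 to 0.069), P4hb (-0.39 to 0.0077) and Smad2 (-0.20 to 0.013). The cause of these changes was not tested. No paired analysis was possible because the labels give no replicate numbers shared by the groups. With 2 libraries a group and values to 2 decimals, genes under about 1 FPKM rest on few fragments.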
